A study of Mus musculus with 30 samples.

Results

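The genes of fatty acid oxidation are described here across time and culture medium in mouse embryonic stem cells (ESCs). The group holds 36 listed genes, taken by the symbol of their Ensembl identifier, and all 36 were found in both count tables, which list 52630 and 55487 genes. They comprise 5 long-chain acyl-CoA synthetases, 5 genes of the carnitine shuttle, 7 acyl-CoA dehydrogenases, 5 hydratase, dehydrogenase and thiolase genes, 3 auxiliary enzymes, 3 genes of the electron transfer flavoprotein system, 2 thioesterases, 4 peroxisomal enzymes and 2 PPAR receptors. All 36 passed the filter on low counts in both experiments, where 16049 and 16054 genes were tested.

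E14tg2a cells, an established mouse ESC line, were used throughout. In the time course the cells were held in Serum/LIF (labelled 0 h, 3 libraries) or moved for 3, 9 or 24 h (3 libraries each) into EMM, which is the Serum/LIF medium with galactose in place of glucose and pyruvate. In the long-term experiment the cells were grown for 10 passages (P10) or 20 passages (P20) in 1 of 3 media, Serum/LIF, EMM and 2i/LIF. There were 3 libraries for each medium and passage and 18 in all. LIF is a cytokine that sustains self-renewal and was part of all 3 media, serum was shared by Serum/LIF and EMM, and 2i/LIF adds inhibitors of the kinases MEK and GSK3.

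Fatty acids enter oxidation after they are joined to coenzyme A by acyl-CoA synthetases. Long-chain acyl groups then cross into mitochondria on carnitine, a step made by CPT1 at the outer membrane, a carrier (Slc25a20) and CPT2 at the inner membrane. In the matrix each round of β-oxidation runs through a dehydrogenase, a hydratase, a further dehydrogenase and a thiolase, the electrons of the opening step pass to the respiratory chain through the electron transfer flavoprotein, and peroxisomes shorten very long and branched chains with their own oxidases. Many of these genes are known targets of PPAR and ERR nuclear receptors, and Esrrb of the ERR family is abundant in ESCs.

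Totals per library ran from 24074132 to 35301962 counts in the time course and from 6944904 to 27912928 in the long-term experiment. The shallowest of these, replicate 1 of 2i/LIF at P20, stood apart, with 3.95% of its counts in the gene CT010467.1, which was also the most abundant gene (1.54%) in replicate 3 of EMM at P10. The counts of members called in the long-term experiment were recomputed without this pair of libraries. The experiments were counted in different ways, so levels are compared within each experiment only. The 6 ESC markers checked (among them Pou5f1, Nanog and Esrrb) were above the floor of 3 counts in every group. They summed to 45060 to 49260 normalised counts in Serum/LIF, 61550 to 69870 in EMM and 48020 to 49930 in 2i/LIF at P10, so that EMM lay above both, and to 52830 to 56680, 48480 to 49540 and 54190 to 57510 at P20, where EMM lay below both. The markers of other cell types were not constant, and the part of any of these markers in the results below was not tested. Their summed normalised counts are given as the range over the 3 libraries of a group. In the time course, the 5 fibroblast markers summed to 1914 to 2014 in Serum/LIF and 1339 to 1575 at 24 h, the 6 primitive endoderm markers to 394 to 425 and 710 to 730, the 5 trophoblast markers to 398 to 415 and 578 to 607, and the 4 markers of early differentiation to 2690.0 to 2898 and 1538 to 1603. In the long-term experiment the fibroblast markers differed most. They summed to 2273 to 2706 in Serum/LIF, 326 to 386 in EMM and 87.1 to 109 in 2i/LIF at P10, and to 3645 to 7210.0, 183 to 219 and 106 to 122 at P20, with Col1a2 and Col3a1 at the floor in EMM at P10 and Col3a1 at the floor in 2i/LIF at both passages. In Serum/LIF and EMM, in that order, the early differentiation markers summed to 2148 to 2204 and 568 to 709.6 at P10 and to 962 to 1111 and 1299 to 1500.0 at P20, the primitive endoderm markers to 171 to 212 and 91.6 to 113 at P10 and 204 to 265 and 210.2 to 311 at P20, and the trophoblast markers to 386 to 530.4 and 126 to 193 at P10 and 321 to 493 and 161 to 168 at P20. In 2i/LIF at P10 and P20 the early differentiation markers summed to 799.8 to 1004 and 319 to 497, the primitive endoderm markers to 52.9 to 54.9 and 49.3 to 105, and the trophoblast markers to 367 to 419.7 and 143 to 253. A sum can hide markers that went opposite ways. For EMM against Serum/LIF, the log2 fold changes of the 5 primitive endoderm markers tested ran from −2.37 to 2.73 at P10. At P20 those of the same markers ran from −0.23 to 1.61. In bulk samples fewer cells of a type and less RNA per cell cannot be told apart.

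Promoter sequences are shown for the members that hold letters recognised by nuclear receptors, since these receptors are the known regulators of the pathway. Of the 36 genes, 30 matched a RefSeq promoter (GRCm38.p6, 250 bases before to 50 bases after a start), 33 promoters in all. The core motif AGGTCA, searched on both strands, was found in 6 of these 33 promoters (18.18%), against 16.26% of all 32851 promoters in the table. The longer ERR letters TCAAGGTCA, which contain it, were found in 1 of 33, against 0.42% of all promoters. CACGTG and a pair of AGGTCA in the same direction with 1 base between them were found in none of the 33, against 7.15% and 0.04% of all promoters. A match is a description of letters and not a mapped binding site.

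The Cpt1a promoter is printed whole, because Cpt1a is the entry enzyme of the shuttle and was followed in every comparison. It lies at chr19:3323051-3323350 on the plus strand, and the capitals mark AGGTCA, read on the opposite strand, whose leftmost base is 94 bases before the start.
Cpt1a: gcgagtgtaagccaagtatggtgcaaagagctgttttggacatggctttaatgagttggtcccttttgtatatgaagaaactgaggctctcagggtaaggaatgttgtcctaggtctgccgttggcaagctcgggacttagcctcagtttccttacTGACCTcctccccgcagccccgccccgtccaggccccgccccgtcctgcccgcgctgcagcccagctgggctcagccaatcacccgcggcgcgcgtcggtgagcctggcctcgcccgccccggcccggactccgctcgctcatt
The other genes that hold a match are shown as windows from the gene's own strand, with AGGTCA in capitals and, for Acsl6, the longer ERR letters in capitals. In Acadm and Acsl6, as in Cpt1a, the match is read on the opposite strand, so the capitals show its reverse complement. Echs1 (chr7:140116472-140116531), Acadvl (chr11:70015483-70015542) and Cpt1c (chr7:44974965-44975024), all on the minus strand, hold it 83, 87 and 146 bases before the start. Acadm (chr3:153944860-153944893, minus strand) holds it at the far edge of the window, 249 bases before the start. Acsl6 (chr11:54303630-54303689, plus strand) holds the ERR letters 167 bases before the start of 1 of its 3 promoters, and that promoter holds AGGTCA once more, 189 bases before the start, in lower case in the window.
Echs1: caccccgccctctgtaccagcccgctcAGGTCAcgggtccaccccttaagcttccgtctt
Acadvl: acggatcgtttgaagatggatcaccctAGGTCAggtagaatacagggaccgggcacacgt
Cpt1c: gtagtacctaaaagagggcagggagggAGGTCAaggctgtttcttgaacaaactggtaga
Acadm: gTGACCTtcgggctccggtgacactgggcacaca
Acsl6: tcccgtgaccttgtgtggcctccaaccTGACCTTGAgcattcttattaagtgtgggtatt
Hadha and Hadhb, which encode the α and β subunits of the mitochondrial trifunctional protein, lie head to head, with RefSeq starts 273 bases apart on chromosome 5. Their promoters share the 228 bases at chr5:30155003-30155230, printed from the strand of Hadhb, and none of the letters searched is in them.
Hadha and Hadhb: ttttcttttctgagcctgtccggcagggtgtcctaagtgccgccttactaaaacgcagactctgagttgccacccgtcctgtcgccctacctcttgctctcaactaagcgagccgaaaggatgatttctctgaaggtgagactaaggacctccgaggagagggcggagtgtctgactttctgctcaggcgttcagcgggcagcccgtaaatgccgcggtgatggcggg

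Levels per length differed widely among the 36 genes. In Serum/LIF of the time course, 15 genes were at 10 or more RPKM (reads scaled by exon length and library size) and 3 were under 1. Etfa, the α subunit of the electron transfer flavoprotein, was the highest at 56.3 ± 1.89 RPKM (SD, n = 3), and Acadm, the medium-chain dehydrogenase, reached 31.7 ± 1.59. Cpt1a was at 11.2 ± 0.535 RPKM, above the brain-type Cpt1c at 8.11 ± 0.563, and both were far above the muscle-type Cpt1b at 0.0531 ± 0.0301. Some members overlap a gene model on the same strand, so their reads may be assigned to either. Among them are Cpt1b (Gm44502), Acsl3 (Utp14b), Acadl (Gm15793), Acad9, Acad11, Etfb, Etfdh and Hsd17b4. Some members overlap a gene on the opposite strand, among them Acox3 (4931431C16Rik), Acsl5 (Zdhhc6), Acad11 (Ackr4), Acadvl (Dvl2), Echs1 (Paox) and Etfdh (4930579G24Rik). Whether strand was used in counting is not given in the sources used here, so reads of such pairs cannot be told apart. Acadvl and Hadhb, which handle very long and long chains, were at 4.6 ± 0.66 and 5.43 ± 0.1 RPKM, below Acadm and Acadl (22.9 ± 0.651). Hadha, the partner subunit of Hadhb, was at 15.5 ± 0.506 RPKM. These gaps depend on the exon length used, which was 6595 bases for Hadhb and 2005 for Acadl. Their mean normalised counts were 1059 and 1355. Ppara was at 0.0761 ± 0.0426 RPKM and Ppard at 5.83 ± 0.105. Replicates differed little, with a median coefficient of variation over the 36 genes of 3.87% in Serum/LIF and 3.95% at 24 h of EMM.

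**Figure D1:**
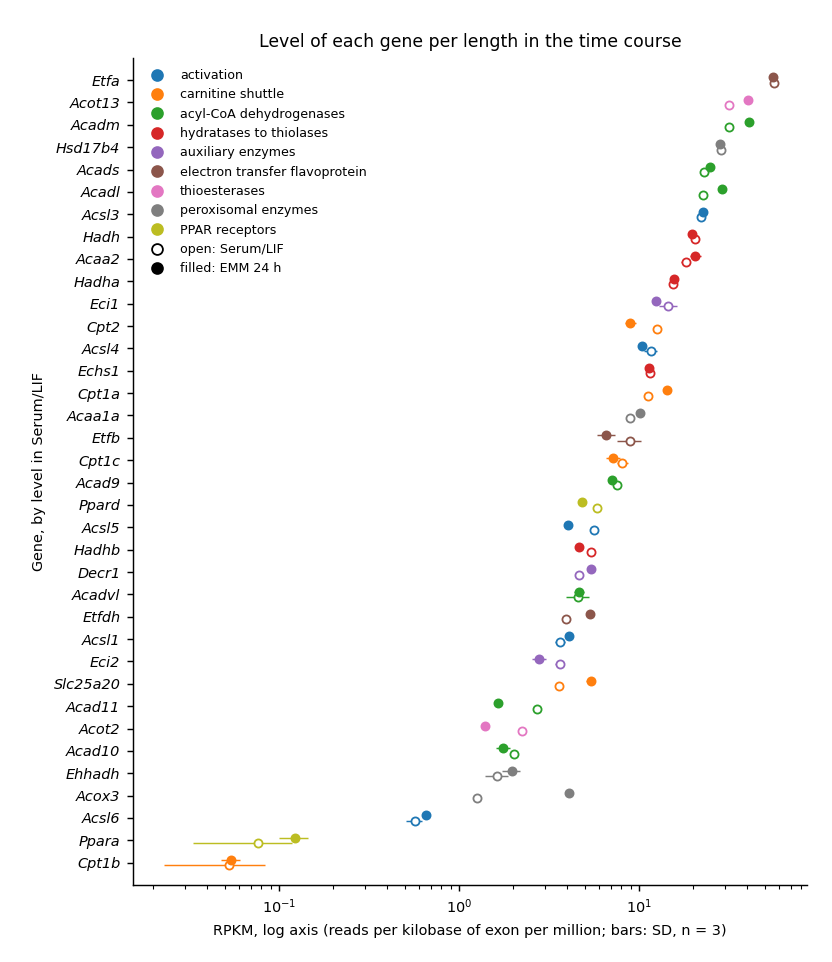
Level of each of the 36 genes in RPKM (x axis, log scale) in Serum/LIF (open circles) and after 24 h of EMM (filled circles), coloured by role, with bars for the SD of 3 libraries. Most genes keep their place, while Acox3 moves up to the level of Acsl1 and Ppara and Cpt1b stay under 1 RPKM.

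The first 24 h in EMM were examined next. All 3 times were compared with the same 3 Serum/LIF libraries, so these comparisons are not independent. The time course has no Serum/LIF library labelled 3, 9 or 24 h. Effects of EMM and of time since the medium change thus cannot be told apart. At 3 h, 1 member rose and 8 fell against Serum/LIF at an edgeR adjusted p under 0.01, beside 16.3% and 18.2% of all genes tested (1 and 8 of 36 are 2.78% and 22.2%). At 9 h, 6 were higher and 10 lower, beside 18.5% and 19.7% of all genes. With library totals in place of TMM scaling the split at 9 h was 4 higher and 12 lower. That scaling shifted all genes by a median of −0.0266 on the log2 scale at 9 h, and the shares of all genes given here are those with TMM. At 24 h, 8 were higher and 8 lower, which is 22.2% each, beside 21.8% and 22.2%. The shares at 24 h were close to those of all genes, so the count is no result about the group. The median log2 fold change of the 36 was −0.07, −0.08 and 0.02 at 3, 9 and 24 h, against medians within 0.02 of 0 for all genes tested. Among the members called, a log2 change above 1 in size was passed by none at 3 h and by Acox3 alone at 9 and 24 h, beside 4.22%, 5.55% and 8.18% of all genes at 3, 9 and 24 h.

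Acox3, a peroxisomal oxidase of branched-chain acyl-CoA, had the largest called change at 9 and 24 h. Its normalised counts were 415, 422 and 448 in Serum/LIF, 605, 529 and 552 at 3 h, 1029.9, 1039 and 1016 at 9 h and 1381, 1422 and 1397 at 24 h. Each time point lay above the one before it with no overlap between libraries. Errors of log2 fold changes are standard errors (SE) and adjusted p values are from edgeR throughout. The log2 fold change against Serum/LIF was 0.39 ± 0.057 (SE, adjusted p = 5.5e-05) at 3 h, 1.26 ± 0.056 (SE, adjusted p = 2.38e-10) at 9 h and 1.71 ± 0.055 (SE, adjusted p = 4.56e-12) at 24 h. The other peroxisomal members did not pass the test at any of the 3 times. Ehhadh, the bifunctional hydratase and dehydrogenase, Hsd17b4, which makes the same steps for branched chains, and the thiolase Acaa1a had log2 fold changes of 0.26, −0.02 and 0.17 at 24 h. Acaa1a has a close copy, Acaa1b, so its counts are uncertain.

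In the carnitine shuttle the entry enzyme and the carrier rose while CPT2 fell. Cpt1a had 2407, 2528 and 2649 normalised counts in Serum/LIF and 2480.1, 2432 and 2551 at 3 h, and these overlapped (log2 fold change −0.02, adjusted p = 0.695). It had 3532, 3411 and 3306 at 9 h and 3379, 3233 and 3171 at 24 h, all above every library of Serum/LIF and 3 h. The log2 fold change was 0.43 ± 0.043 (SE, adjusted p = 9.57e-07) at 9 h and 0.37 ± 0.043 (SE, adjusted p = 3.83e-06) at 24 h. Slc25a20, which exchanges acylcarnitine for carnitine, had 509.8, 508 and 529 counts in Serum/LIF and 614, 578 and 566 at 9 h, where each EMM library was above Serum/LIF but the test was not passed (log2 fold change 0.18, adjusted p = 0.0143). At 24 h it had 748, 827 and 751, a log2 fold change of 0.59 ± 0.057 (SE, adjusted p = 4.86e-07). Cpt2, which returns the acyl group to coenzyme A, fell at once. Its counts were 901, 887 and 881 in Serum/LIF, 559.8, 559 and 583 at 3 h, 666, 692 and 611 at 9 h and 673, 645 and 589 at 24 h, and no EMM library reached the lowest Serum/LIF library. Its log2 fold changes were −0.65 ± 0.06 (SE, adjusted p = 5.62e-07), −0.44 ± 0.06 (SE, adjusted p = 2.18e-05) and −0.48 ± 0.06 (SE, adjusted p = 6.68e-06). Cpt1c and Cpt1b did not pass the test against Serum/LIF at any time, and Cpt1b had only 2 to 18 raw counts in a library.

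Among the acyl-CoA dehydrogenases, the members for medium and long straight chains rose by 24 h, Acad11 fell throughout, and Acads dipped and came back. Acadm rose from 3490.0, 3640.5 and 3855 counts in Serum/LIF to 4706, 4817 and 4755 at 24 h, which gave a log2 fold change of 0.38 ± 0.041 (SE, adjusted p = 1.8e-06). Acadl, the long-chain enzyme, rose from 1312, 1386 and 1366 to 1803, 1649 and 1704 (0.34, adjusted p = 8.27e-06), after a smaller rise at 9 h (0.17). Both sets of libraries were apart. Acads, the short-chain enzyme, had 1545, 1483 and 1599 counts in Serum/LIF and 1147, 1168 and 1174 at 3 h, a fall of 0.41 on the log2 scale (SE 0.043, adjusted p = 2.1e-06). It was lower at 9 h too (−0.25). At 24 h it had 1673, 1667 and 1682, above Serum/LIF in every library but not past the threshold (log2 fold change 0.12, adjusted p = 0.0271). Acad11, which acts on longer and hydroxylated chains, fell at each time, from 754, 792 and 805 counts to 579, 622 and 586 at 3 h, 566, 542 and 505 at 9 h and 477, 478 and 471 at 24 h. Its log2 fold changes were −0.40, −0.54 and −0.72 ± 0.057 (SE, adjusted p = 6e-08) in that order. Acad10, whose substrates are less well known, was called lower at 3 h and not at 9 or 24 h (−0.38, adjusted p = 0.00293), and its difference between 3 and 24 h did not pass the test (0.17, adjusted p = 0.12). Acadvl and Acad9 did not pass the test at any time.

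The remaining steps in mitochondria were as follows. Of the 5 hydratase, dehydrogenase and thiolase genes, none was higher at any time, beside 16.3%, 18.5% and 21.8% of all genes at 3, 9 and 24 h. With 5 genes this count is no result about these steps. Echs1, the short-chain hydratase, was lower at 3 h (−0.15) and 9 h (−0.14), Hadh, the short-chain hydroxyacyl dehydrogenase, at 9 h (−0.14), the thiolase Acaa2 at 9 h (−0.26) and Hadhb at 24 h (−0.22, adjusted p = 0.00277). These falls are log2 fold changes under 0.3 in size. Hadha did not pass the test at any time (log2 fold changes 0.05, 0.05 and 0.02). Etfdh, which hands electrons from the flavoprotein to ubiquinone, had 838, 911 and 879.6 counts in Serum/LIF and 1152, 1236 and 1164 at 24 h, all above Serum/LIF (log2 fold change 0.43 ± 0.053, adjusted p = 6.31e-06), and was higher at 9 h (0.27). Etfa did not pass, and Etfb, the β subunit, was called lower at 24 h (−0.44, adjusted p = 0.00306) although its lowest Serum/LIF library, at 253 counts, fell below the highest of EMM, at 254. Eci2, an isomerase for unsaturated chains, was lower at 3, 9 and 24 h (−0.37, −0.40 and −0.37), Decr1, the reductase for such chains, was higher at 24 h (0.23), and Eci1 did not pass.

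Acsl5 had 819, 838 and 782 counts in Serum/LIF and 580.0, 565 and 592 at 24 h, and was lower at 9 h (−0.47) and at 24 h (−0.49 ± 0.074, adjusted p = 4.42e-05). Acsl1 was higher at 9 h (0.21, adjusted p = 0.00565), and Acsl3, Acsl4 and Acsl6 did not pass the test. The thioesterases, which free acyl groups from coenzyme A, went opposite ways. Acot2, a mitochondrial enzyme, had 151, 145 and 143 counts in Serum/LIF and 73.1, 77.8 and 69.9 at 3 h, which gave a log2 fold change of −0.99 ± 0.10 (SE, adjusted p = 1.68e-06). It had 82.6, 71.1 and 90.2 at 9 h and 90.9, 90.1 and 90.4 at 24 h (log2 fold changes −0.85 and −0.69), and no EMM library overlapped Serum/LIF. Its counts are uncertain because Acot1 is a near-identical copy. Acot13 rose from 734, 701 and 667 to 898, 870.0 and 938 at 9 h (0.36, adjusted p = 4.09e-05) and 858, 929 and 876 at 24 h (0.34, adjusted p = 6.32e-05). Ppard fell at every time (−0.33, −0.22 and −0.26), from 1298, 1314 and 1268 counts to 1071, 1052 and 1115 at 24 h, while Ppara had 3 to 16 raw counts in a library and did not pass.

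Some calls of the time course ended when a single library was left out, and the log2 fold changes without it are given with the highest adjusted p. At 3 h, the call of Echs1 ended without Serum/LIF replicate 2 or EMM 3 h replicates 2 or 3 (−0.14 to −0.12, adjusted p up to 0.0276). That of Acad10 ended without Serum/LIF replicate 3 or EMM 3 h replicates 1 or 3 (−0.37 to −0.29, adjusted p up to 0.0202). At 9 h, the call of Acsl1 ended without Serum/LIF replicate 1 or EMM 9 h replicates 1 or 2 (0.17 to 0.22, adjusted p up to 0.0242). That of Acadl ended without Serum/LIF replicate 1 or EMM 9 h replicate 1 (0.16 to 0.18, adjusted p up to 0.0138). That of Hadh ended without any single library other than EMM 9 h replicate 3 (−0.15 to −0.09, adjusted p up to 0.0927). That of Echs1 ended without any single library other than Serum/LIF replicate 3 or EMM 9 h replicate 3 (−0.14 to −0.10, adjusted p up to 0.0495). That of Acaa2 ended without Serum/LIF replicates 1 or 2 or EMM 9 h replicate 3 (−0.23 to −0.22, adjusted p up to 0.0173). That of Ppard ended without Serum/LIF replicate 2 or EMM 9 h replicate 3 (−0.19 to −0.18, adjusted p up to 0.0152). At 24 h, the call of Hadhb ended without Serum/LIF replicates 1 or 3 or EMM 24 h replicate 3 (−0.20 to −0.17, adjusted p up to 0.0249). That of Decr1 ended without Serum/LIF replicate 1 or EMM 24 h replicate 2 (0.20, adjusted p up to 0.0226). That of Etfb ended without any single library other than Serum/LIF replicate 3 or EMM 24 h replicate 1 (−0.41 to −0.34, adjusted p up to 0.0266). For 24 h against 3 h, the call of Cpt1c ended without EMM 3 h replicates 1 or 2 or EMM 24 h replicate 2 (−0.26 to −0.22, adjusted p up to 0.0248). That of Echs1 ended without any single library (0.10 to 0.13, adjusted p up to 0.0513). That of Acsl5 ended without EMM 3 h replicate 2 (−0.29, adjusted p up to 0.0109). At 3 h, other settings ended the call of Echs1 without a low-count filter (adjusted p = 0.0778). At 9 h, other settings ended the calls of Hadh with DESeq2 size factors (adjusted p = 0.0102), Acsl1 and Acadl with library totals (adjusted p = 0.0122 to 0.0127), Hadh and Echs1 without a low-count filter (adjusted p = 0.0884 to 0.103), Hadh with DESeq2 (adjusted p = 0.0108) and Hadh, Echs1 and Ppard with only the groups compared (adjusted p = 0.012 to 0.0473). At 24 h, other settings ended the calls of Hadhb without a low-count filter (adjusted p = 0.0159) and Decr1 and Etfb with only the groups compared (adjusted p = 0.0138 to 0.01415). For 24 h against 3 h, other settings ended the calls of Echs1 with DESeq2 size factors (adjusted p = 0.0149), Cpt1c with library totals (adjusted p = 0.0193), Echs1 without a low-count filter (adjusted p = 0.07255), Echs1 with DESeq2 (adjusted p = 0.025) and Echs1 with only the groups compared (adjusted p = 0.0141).

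**Figure D2:**
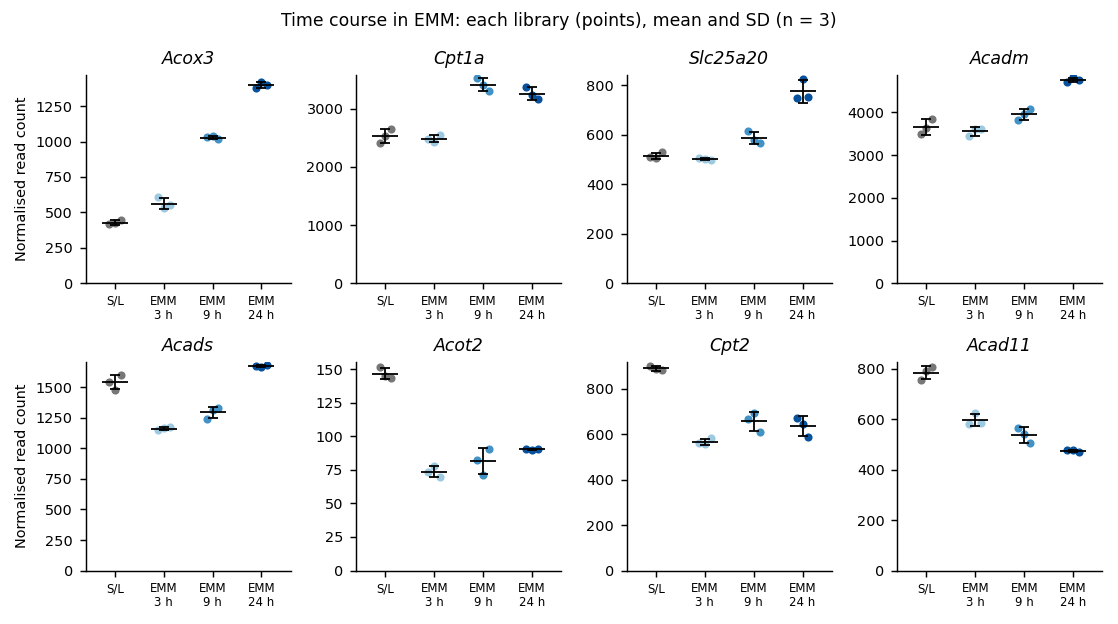
Normalised read counts (y axis, from 0) of 8 genes in Serum/LIF (S/L) and after 3, 9 and 24 h of EMM (x axis), with each library as a point and the mean and SD of 3 libraries as bars. Acox3 climbs at every step, Cpt1a is above Serum/LIF from 9 h, Slc25a20 is highest at 24 h, Acads dips at 3 h, and Acot2, Cpt2 and Acad11 sit below Serum/LIF throughout.

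Between 3 and 24 h within EMM, 10 members rose and 4 fell (27.8% and 11.1% of 36), beside 20.8% and 19.2% of all genes, and the median of the 36 was 0.13 on the log2 scale. With library totals in place of TMM the split was 15 higher and 3 lower, and this scaling shifted all genes by a median of 0.0535 on the log2 scale. The shares of all genes given here are those with TMM. The rises were led by Acox3 (1.32, adjusted p = 2.32e-10), Slc25a20 (0.62, adjusted p = 3.8e-07) and Acads (0.53, adjusted p = 1.61e-07), and Cpt1a rose by 0.39 (edgeR adjusted p = 2.7e-06). Acadm, Acadl, Etfdh, Acot13, Decr1 and Echs1 were the others, at 0.12 to 0.42. Acox3 alone was past 1 in size, beside 4.44% of all genes. The falls were Etfb (−0.53, adjusted p = 0.000733), Acad11 (−0.33, adjusted p = 0.000222), Acsl5 (−0.33, adjusted p = 0.00171) and Cpt1c (−0.28). These values share their 3 h and 24 h libraries with the comparisons above.

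Long-term culture in EMM was compared with Serum/LIF at each passage. At P10, 14 members were higher in EMM and 5 were lower (38.9% and 13.9%), beside 18.7% and 18.7% of all genes, and the median was 0.23, against 0.01 for all genes. With library totals the split was 12 higher and 8 lower, and this scaling moved the median of all genes by −0.0997 on the log2 scale. At P20, 7 were higher and 5 lower (19.4% and 13.9%), beside 13.6% and 12.5%, and the median was 0.02. The share of higher members was above that of all genes at P10 and nearer to it at P20. The summed ESC markers were higher in EMM than in Serum/LIF at P10 and lower at P20, and a link to the shares of members was not tested. The count was 18 at P10 and 12 at P20 without the pair of libraries led by CT010467.1. A log2 change above 1 was passed by 8 members at P10 (Ppara, Acox3, Acaa2, Slc25a20 and Cpt1a higher, Acsl5, Acot2 and Acsl3 lower) and by 3 at P20 (Cpt1b and Acox3 higher, Acadvl lower), beside 17.1% and 9.63% of all genes, either way.

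Cpt1a had 611, 672 and 581 normalised counts in Serum/LIF and 1563, 1468 and 1194 in EMM at P10, with a log2 fold change of 1.19 ± 0.13 (SE, adjusted p = 3.98e-07). At P20 it had 903, 1064 and 925 and 1489, 1576 and 1578, a log2 fold change of 0.68 ± 0.12 (SE, adjusted p = 0.000244). EMM lay above Serum/LIF in every library at both passages, the EMM libraries of both passages overlapped, and every Serum/LIF library at P20 lay above those at P10. The change from P10 to P20 in the EMM effect was −0.51, adjusted p = 0.0403, which missed the threshold with all libraries and passed it with only those groups in the fit (−0.53, adjusted p = 0.00557) and without the pair led by CT010467.1 (−0.62, adjusted p = 0.00201). Slc25a20 behaved otherwise. It had 357, 359 and 340.1 counts in Serum/LIF and 1231, 1266 and 1200.3 in EMM at P10, with a log2 fold change of 1.81 ± 0.12 (SE, adjusted p = 1.47e-09), and 449, 394 and 468 against 428, 441 and 437 at P20, where the libraries overlapped. Cpt2 was lower in EMM at P10 (−0.54, adjusted p = 0.00269) and did not pass at P20 (−0.07). Cpt1b, the muscle form, was not called at P10 (0.17) and rose at P20 from 63, 70.7 and 35 to 165, 198 and 170.5 counts (1.63 ± 0.22, adjusted p = 1.5e-05), still at 3.38 ± 0.339 RPKM against 13 ± 0.424 for Cpt1a. Cpt1c did not pass at either passage.

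Of the 7 dehydrogenases, 4 were higher and none lower at P10, and 1 was higher and 3 lower at P20, beside 18.7% and 18.7% of all genes at P10 and 13.6% and 12.5% at P20. At P10, Acadm (0.92, adjusted p = 5.38e-06), Acadl (0.70, adjusted p = 3.87e-05), Acads (0.60, adjusted p = 4.6e-05) and Acad9 (0.42, adjusted p = 0.00299) were higher in EMM, and none was lower. At P20 only Acadl was higher among the 7 tested, with 313, 288 and 267 counts in Serum/LIF and 515, 557 and 633 in EMM (0.98 ± 0.11, adjusted p = 2.47e-06). Acads had 641, 651 and 577 in Serum/LIF and 873, 902 and 1072 in EMM at P10, and 675, 666 and 649 and 459, 495 and 453 at P20, where it was lower (−0.50, adjusted p = 0.000447). It was the 1 member called higher at P10 and lower at P20, as were 0.628% of all genes tested in both experiments, and none of the 36 went from lower to higher, beside 0.86% of all genes. Acadvl, the very-long-chain enzyme, was not called at P10 (0.26) and at P20 had 434, 394 and 410.4 counts in Serum/LIF and 203, 215 and 200.2 in EMM (−1.0004 ± 0.14, adjusted p = 2.43e-05). Acad11 was lower at P20 (−0.35, adjusted p = 0.00464) and Acad10 did not pass.

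Of the later steps, Acaa2, the mitochondrial thiolase that closes a round of oxidation, moved most. It had 438, 401 and 373 counts in Serum/LIF and 1602, 1683 and 1755 in EMM at P10, with a log2 fold change of 2.05 ± 0.093 (SE, adjusted p = 8.16e-12). At P20 it had 524, 476 and 527 and 419.6, 441 and 432, lower in every EMM library but not past the threshold (−0.24, adjusted p = 0.0471). Hadh and Echs1 were higher at both passages (0.42 and 0.60 at P10, 0.49 and 0.38 at P20). Hadha was higher at P10 (0.42, adjusted p = 0.00204) and Hadhb did not pass at either passage (0.14 and 0.03), and the genes share the promoter stretch shown above. That the genes of this pair differ from each other was not tested. Eci2 was lower at P20 (−0.53, adjusted p = 0.000581) and had −0.34 at P10, where it missed the threshold. Etfdh was higher at P10 (0.54, adjusted p = 0.000489), and Etfa, Etfb, Eci1 and Decr1 did not pass.

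Among the 5 acyl-CoA synthetases, 3 fell at P10 and 1 at P20, and none rose. Of all genes, 18.7% were lower and 18.7% higher at P10, and 12.5% lower and 13.6% higher at P20. Acsl5 had 590.2, 514 and 526 counts in Serum/LIF and 149, 143 and 110.0 in EMM at P10, with a log2 fold change of −1.99 ± 0.14 (SE, adjusted p = 2.37e-09), and 402, 386 and 403 against 356, 386 and 382 at P20 (−0.08, adjusted p = 0.648). Acsl3, the most abundant synthetase per length, was lower at both passages, with 2031, 2010.0 and 1814 against 772, 778 and 779 at P10 (−1.33 ± 0.089, adjusted p = 1.32e-09) and 1388, 1518 and 1614 against 1033, 964 and 1033 at P20 (−0.58 ± 0.086, adjusted p = 4.31e-05). Acsl4, which prefers arachidonate, was lower at P10 (−0.81, adjusted p = 1.36e-06), and Acsl1 and Acsl6 did not pass. Acot2 had 73.3, 84.3 and 72.9 counts in Serum/LIF and 24.1, 28.1 and 18.3 in EMM at P10 (−1.68 ± 0.25, adjusted p = 1.81e-05) and overlapped at P20 (−0.06). Acot13 was higher at P20 only in the tests run (0.83, adjusted p = 0.000298 against 0.13 at P10), and the difference between passages missed the threshold (0.70, adjusted p = 0.0241).

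In peroxisomes Acox3 was again higher, with 150.4, 166 and 152 counts in Serum/LIF and 898, 862 and 864 in EMM at P10, with a log2 fold change of 2.49 ± 0.16 (SE, adjusted p = 8.14e-10). At P20 it had 147, 174 and 171 and 462, 423 and 507, a log2 fold change of 1.497 ± 0.16 (SE, adjusted p = 9.46e-07). No library overlapped at either passage. Acaa1a was higher at P10 (0.67, adjusted p = 0.000288), and Ehhadh and Hsd17b4 did not pass. Ppara was at the floor in Serum/LIF at P10, with 1 raw count over the 3 libraries against 32 in EMM. That is a ratio of 40.1 per library size, with an exact 95% interval of 6.70 to 1630.0 that covers counting error only, and the highest library had 18 raw counts. Ppara did not pass at P20, nor Ppard at either passage.

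**Figure D3:**
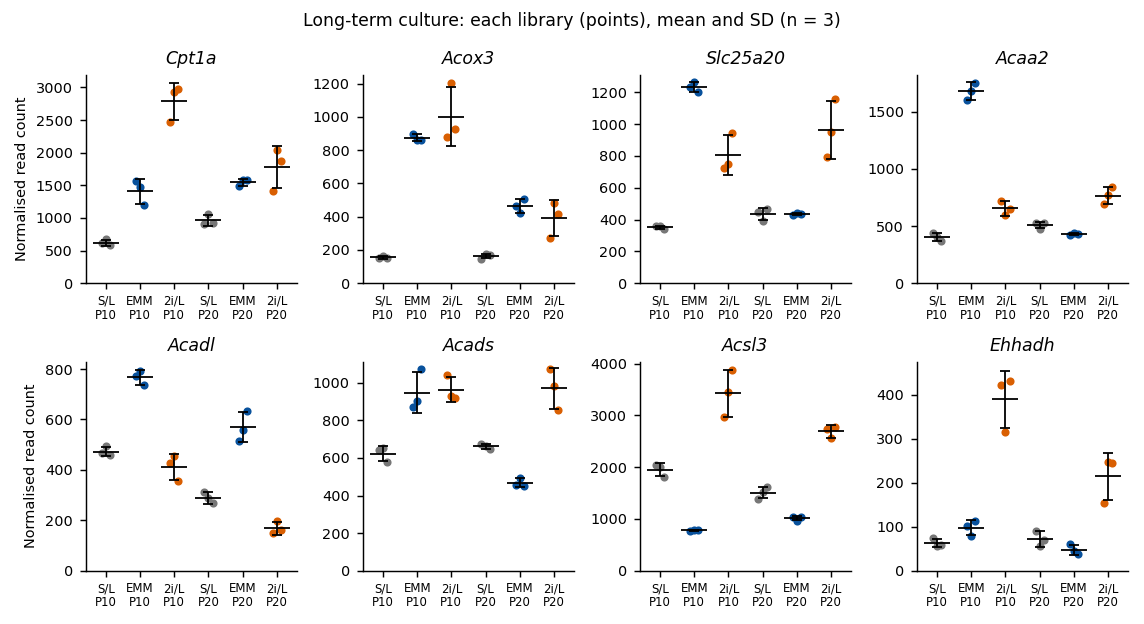
Normalised read counts (y axis, from 0) of 8 genes in Serum/LIF (S/L), EMM and 2i/LIF (2i/L) at P10 and P20 (x axis), with each library as a point and the mean and SD of 3 libraries as bars. Slc25a20 and Acaa2 peak in EMM at P10 and are level with Serum/LIF or below it at P20, Acox3 and Acadl are above Serum/LIF in EMM at both passages, and Ehhadh and Acsl3 are highest in 2i/LIF.

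The difference between passages was tested directly, as the EMM effect at P20 minus that at P10. It was above 0 for 5 members and below 0 for 10 (13.9% and 27.8%), beside 8.28% and 6.43% of all genes, and the median of the 36 was −0.15. Acaa2 (−2.29 ± 0.13, adjusted p = 8.34e-10) and Slc25a20 (−1.81 ± 0.17, adjusted p = 5.53e-07) dropped the most among genes with sizeable counts, followed by Acadvl (−1.26, adjusted p = 0.000146). Acads, Acox3, Acadm, Acaa1a, Acad9 and Acad11 followed at −1.10 to −0.49, and Ppara was called from very few counts (−3.99, a fitted value that is no bound). Of the 7 dehydrogenases, 5 dropped and none gained, and 15 members were called without the pair of libraries led by CT010467.1. The gains were Acsl5 (1.91 ± 0.19, adjusted p = 8.62e-07), Acot2 (1.62 ± 0.33, adjusted p = 0.00132), Cpt1b (1.46 ± 0.31, adjusted p = 0.00195), Acsl4 (0.97) and Acsl3 (0.75). Of the 5 synthetases, 3 were among them. A log2 difference above 1 in size was passed by 8 members, beside 8.4% of all genes. P10 and P20 libraries differ in passage and in whatever else separated the collections, and these cannot be told apart.

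The same was done for EMM against Serum/LIF in the long-term experiment. For EMM against Serum/LIF at P10, the call of Cpt2 ended without EMM replicates 1 or 3 or Serum/LIF replicate 2 (−0.51 to −0.48, adjusted p up to 0.0161). That of Hadha ended without EMM replicate 1 or Serum/LIF replicate 2 (0.32 to 0.40, adjusted p up to 0.0203). That of Acad9 ended without EMM replicate 2 or Serum/LIF replicates 2 or 3 (0.33 to 0.39, adjusted p up to 0.027). For EMM against Serum/LIF at P20, the call of Acad11 ended without any single library other than Serum/LIF replicate 1 (−0.38 to −0.30, adjusted p up to 0.0333). That of Echs1 ended without any single library other than Serum/LIF replicate 1 or EMM replicate 1 (0.34 to 0.40, adjusted p up to 0.0203). For P20 minus P10, the call of Acad9 ended without any single library other than P10 Serum/LIF replicate 1 or P10 EMM replicate 3 (−0.63 to −0.48, adjusted p up to 0.0322). That of Acad11 ended without any single library other than P10 Serum/LIF replicate 2 or P20 Serum/LIF replicate 1 (−0.53 to −0.44, adjusted p up to 0.0305). That of Ppara ended without any single library other than P10 Serum/LIF replicate 1 or P20 Serum/LIF replicate 3 (−4.22 to −3.06, adjusted p up to 0.0984). That of Acaa1a ended without P10 EMM replicate 3 or P10 Serum/LIF replicates 2 or 3 or P20 EMM replicate 1 or P20 Serum/LIF replicate 1 (−0.76 to −0.69, adjusted p up to 0.014). That of Acox3 ended without P20 EMM replicate 2 or P20 Serum/LIF replicate 2 (−0.94 to −0.92, adjusted p up to 0.0114). For EMM against Serum/LIF at P10, other settings ended the calls of Acad9 and Hadha with library totals (adjusted p = 0.0222 to 0.0231), Acad9 with the stricter count filter (adjusted p = 0.0101) and Cpt2 without the pair of libraries led by CT010467.1 (adjusted p = 0.0131). For EMM against Serum/LIF at P20, other settings ended the calls of Echs1 with library totals (adjusted p = 0.0177) and Acad11 without a low-count filter (adjusted p = 0.02455). For P20 minus P10, other settings ended the calls of Acad9 and Acad11 with library totals (adjusted p = 0.0127 to 0.0145), Acad9, Acad11 and Ppara without a low-count filter (adjusted p = 0.0103 to 0.103), Acad11 with the stricter count filter (adjusted p = 0.0115), Ppara with only the groups compared (adjusted p = 0.0101) and Acad11 and Ppara without the pair of libraries led by CT010467.1 (adjusted p = 0.01255 to 0.0141).

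**Figure D4:**
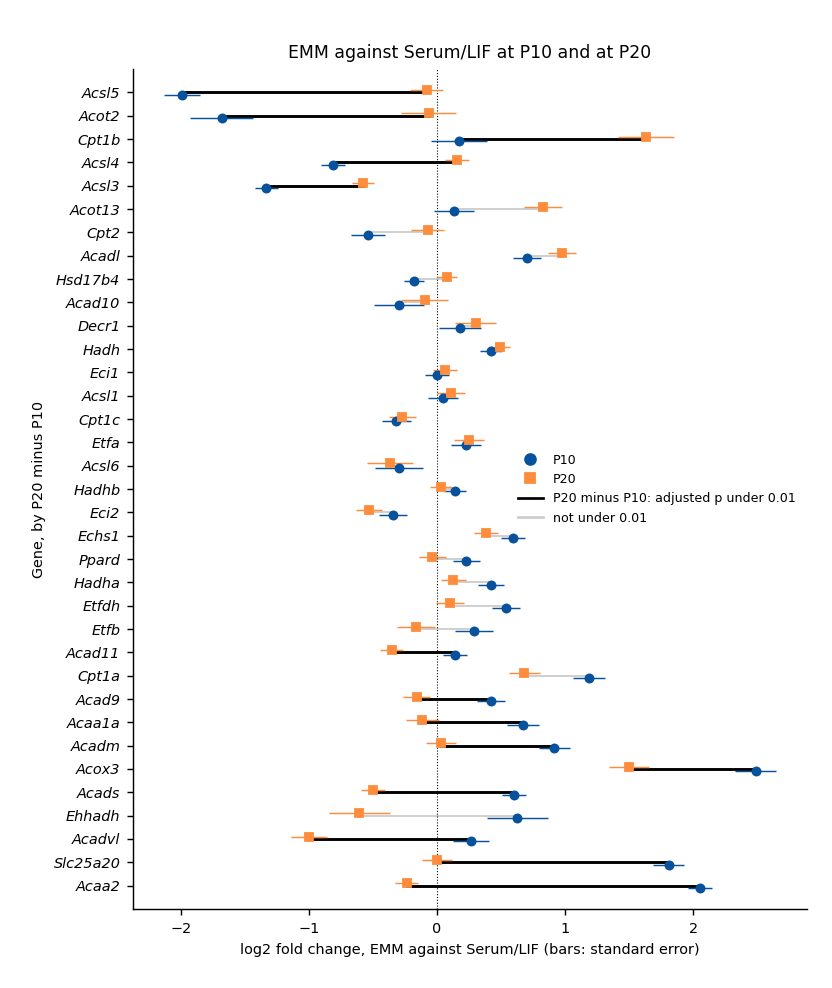
Log2 fold change of EMM against Serum/LIF (x axis, bars for the standard error) at P10 (circles) and P20 (squares) for 35 genes ordered by the difference between passages, with Ppara left out for its low counts. Black lines join the passages where the difference had an edgeR adjusted p under 0.01, and at the bottom Acaa2 runs from 2.05 at P10 to −0.24 at P20.

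The 24 h, P10 and P20 comparisons of EMM with Serum/LIF use different control libraries, so their calls can be set side by side. Of the 36 members, 3 were higher in all of them, Acadl, Acox3 and Cpt1a, which is 8.33% beside 6.03% of all genes tested in both experiments. None was lower in all of them, beside 4.18%. The log2 fold changes at 24 h, P10 and P20 were 1.71, 2.49 and 1.497 for Acox3, 0.37, 1.19 and 0.68 for Cpt1a, and 0.34, 0.70 and 0.98 for Acadl.

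EMM was then compared with 2i/LIF, a medium that holds ESCs in a naive state. At P10, 13 members were higher and 8 lower in EMM (36.1% and 22.2%), beside 22.9% and 22.2% of all genes, and the median was 0.23. At P20, 9 were higher and 12 lower (25% and 33.3%), beside 25.7% and 22.9%, and the median was 0.01. At P10 EMM had less Cpt1a than 2i/LIF did, with 1563, 1468 and 1194 against 2463, 2925 and 2979 counts (−0.98 ± 0.12, adjusted p = 2.04e-06). At P20 it had 1489, 1576 and 1578 against 1417, 2047 and 1876 and overlapped (−0.21, adjusted p = 0.142), and without the pair of libraries led by CT010467.1 it was lower (−0.35, adjusted p = 0.00406). Without that pair 18 members were called at P10 and 20 at P20. With a log2 change above 1 in size as well, 8 were called at P10 and 10 at P20, beside 22.1% and 25.3% of all genes.

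Against 2i/LIF, EMM had less Acsl3, Ehhadh and Acsl6 at both passages. Acsl3 had 2965, 3449 and 3866 counts in 2i/LIF at P10 and 2733, 2552 and 2779 at P20, with log2 fold changes of EMM against 2i/LIF of −2.14 ± 0.091 (SE, adjusted p = 1.43e-12) and −1.41 ± 0.087 (SE, adjusted p = 1.42e-10). Ehhadh had 422, 315 and 431 and 153, 246 and 244 counts in 2i/LIF against 100.5, 79.5 and 112 and 59.5, 43.6 and 37.7 in EMM (−2.01 ± 0.22, adjusted p = 4.67e-07 and −2.23 ± 0.23, adjusted p = 1.18e-07). Acsl6 had 198, 251 and 181 and 298, 215 and 297 in 2i/LIF against 79.6, 76.4 and 101 and 56.7, 71.1 and 71.1 (−1.31 ± 0.18, adjusted p = 8.36e-06 and −2.01 ± 0.18, adjusted p = 1.82e-08). None of these overlapped. In the opposite direction, Acadl was higher in EMM at both passages (0.91, adjusted p = 1.92e-06 at P10 and 1.73 ± 0.12, adjusted p = 5.89e-10 at P20), as were Acad10 (1.15 ± 0.21, adjusted p = 0.00015 and 1.27 ± 0.20, adjusted p = 2.39e-05) and Cpt1b (1.03, adjusted p = 0.001 and 1.94 ± 0.23, adjusted p = 9.23e-07). Acad10 had 83.2, 61 and 55.4 counts in 2i/LIF at P10 and 162, 129 and 139.7 in EMM. Acaa2 (1.36 ± 0.091, adjusted p = 6.05e-10 at P10, −0.84, adjusted p = 2.99e-07 at P20), Slc25a20 (0.61 and −1.16), Acadm (0.65 and −0.89) and Acaa1a (0.63 and −0.59) were called higher in EMM at P10 and lower at P20, and that change was not tested. Acads was lower at P20 (−1.04, adjusted p = 3.11e-08) and not called at P10. Ppara was called higher at P10 (log2 fold change 1.88, adjusted p = 0.00751) on at most 18 raw counts, and DESeq2 (adjusted p = 0.024) and the fit without a low-count filter (edgeR adjusted p = 0.0526) ended that call.

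Other members called against 2i/LIF were these. At P10, Acad9 (0.67), Acad11 (0.50), Etfa (0.40), Etfdh (0.37) and Hsd17b4 (0.29) were higher in EMM, and Cpt1c (−1.08), Eci2 (−0.81), Acsl1 (−0.48) and Hadh (−0.47) were lower. At P20, Acsl5 (1.23), Acot13 (1.23), Hsd17b4 (0.79), Decr1 (0.79), Cpt2 (0.72) and Etfdh (0.38) were higher, and Acsl1 (−0.87), Eci2 (−0.82), Etfb (−0.62) and Echs1 (−0.33) were lower. Hsd17b4, Etfdh, Eci2 and Acsl1 kept their direction between passages. Of these, Acsl1 lies on chromosome 8, where the median of all genes at P20 was −0.29 for EMM against 2i/LIF.

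2i/LIF itself differed from Serum/LIF in many members. At P10, 15 were higher and 8 lower in 2i/LIF (41.7% and 22.2%), beside 26.4% and 25.6% of all genes, with a median of 0.21. At P20, 12 were higher and 8 lower (33.3% and 22.2%), beside 21% and 23.2%, with a median of 0.17. With library totals the split at P20 was 11 higher and 11 lower, and this scaling moved the median of all genes by −0.12. Without the pair of libraries led by CT010467.1, 22 members were called at P10 and 24 at P20. With a log2 change above 1 in size as well, 9 were called at P10 and 6 at P20 over all libraries, beside 26.4% and 22.3% of all genes. Cpt1a rose to its highest level of the long-term experiment in 2i/LIF at P10, 2789 ± 284 counts (SD, n = 3), which is a log2 difference of 2.17 ± 0.13 (SE, adjusted p = 8.36e-11), and at P20 of 0.89 ± 0.12 (SE, adjusted p = 6.54e-06). Acox3 had 879, 1202 and 926 counts at P10 and 275, 483 and 419 at P20 in 2i/LIF, against 150.4, 166 and 152 and 147, 174 and 171 in Serum/LIF (2.68 ± 0.16, adjusted p = 1.11e-10 and 1.29 ± 0.16, adjusted p = 1.94e-06). Both were thus higher than in Serum/LIF in 2i/LIF as in EMM, comparisons that share the Serum/LIF libraries. Ehhadh was higher at both passages (2.63 ± 0.23, adjusted p = 1.28e-08 and 1.63 ± 0.22, adjusted p = 6.2e-06), as was Acsl6 (1.01, adjusted p = 6.5e-05 and 1.64 ± 0.18, adjusted p = 3.29e-07).

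Lower in 2i/LIF were Acsl5, with 107, 126 and 86.3 counts at P10 and 164, 182 and 132 at P20 (−2.37 ± 0.14, adjusted p = 1.17e-10 and −1.31 ± 0.14, adjusted p = 2.14e-07), and Acad10 (−1.44 ± 0.20, adjusted p = 7.56e-06 and −1.37 ± 0.20, adjusted p = 1.39e-05). Acot2 was lower at P10 (−1.29 ± 0.23, adjusted p = 0.000109) and Cpt2 at both (−0.68 at P10 and −0.79 ± 0.14, adjusted p = 8.13e-05 at P20). At both passages Slc25a20 (1.20 and 1.16), Acsl3 (0.81 and 0.83), Acaa2 (0.69 and 0.60), Acads (0.63 and 0.54), Echs1 (0.57 and 0.71) and Acsl1 (0.53 and 0.98) were higher. Acsl1 lies on chromosome 8, whose genes had a median of 0.45 in this comparison at P20. Hsd17b4 (−0.47 and −0.71) and Acad11 (−0.36 and −0.47) were lower at both. Called at P10 alone were Hadh (0.89), Cpt1c (0.76), Hadha (0.49), Eci2 (0.47), Acsl4 (−0.98), Cpt1b (−0.86) and Ppara (9 raw counts against 1, a ratio of 10.3 with an exact 95% interval of 1.42 to 449). Called at P20 alone were Acadm (0.92), Acaa1a (0.48), Acadl (−0.75), Acadvl (−0.71) and Acad9 (−0.43), and the differences between passages were not tested here. Over all 11 comparisons of both experiments, 35 of the 36 members were called at least once, and Eci1 was the exception, while 91.6% of all genes tested in both experiments were called at least once, so the count is no result about the members.

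Single libraries were left out of the comparisons with 2i/LIF as well. For EMM against 2i/LIF at P10, the call of Acsl1 ended without 2i/LIF replicate 1 (−0.33, adjusted p up to 0.0121). That of Ppara ended without any single library other than 2i/LIF replicate 2 (1.57 to 1.94, adjusted p up to 0.0554). That of Etfa ended without any single library other than 2i/LIF replicate 1 (0.23 to 0.43, adjusted p up to 0.0534). That of Etfdh ended without any single library other than 2i/LIF replicate 1 (0.33 to 0.40, adjusted p up to 0.0374). That of Hsd17b4 ended without any single library other than 2i/LIF replicate 1 or EMM replicate 1 (0.23 to 0.27, adjusted p up to 0.0345). For EMM against 2i/LIF at P20, the call of Echs1 ended without any single library other than 2i/LIF replicate 3 (−0.35 to −0.29, adjusted p up to 0.0267). That of Etfdh ended without any single library other than 2i/LIF replicate 1 or EMM replicate 1 (0.33 to 0.39, adjusted p up to 0.0338). For 2i/LIF against Serum/LIF at P10, the call of Cpt1b ended without 2i/LIF replicates 1 or 3 or Serum/LIF replicate 2 (−0.81 to −0.67, adjusted p up to 0.0275). That of Ppara ended without any single library other than Serum/LIF replicate 1 (2.53 to 3.31, adjusted p up to 0.0455). That of Acad11 ended without Serum/LIF replicates 2 or 3 (−0.34 to −0.31, adjusted p up to 0.0162). For 2i/LIF against Serum/LIF at P20, the call of Acad9 ended without 2i/LIF replicate 1 or Serum/LIF replicate 2 (−0.39, adjusted p up to 0.0137). That of Acaa1a ended without 2i/LIF replicate 1 or Serum/LIF replicates 2 or 3 (0.35 to 0.45, adjusted p up to 0.0266). For EMM against 2i/LIF at P10, other settings ended the calls of Etfa, Etfdh and Hsd17b4 with library totals (adjusted p = 0.0147 to 0.0212), Etfdh, Hsd17b4 and Ppara without a low-count filter (adjusted p = 0.0237 to 0.05255), Ppara with DESeq2 (adjusted p = 0.024), Acsl1, Etfa, Etfdh and Hsd17b4 with only the groups compared (adjusted p = 0.0203 to 0.054) and Etfa, Etfdh, Hsd17b4 and Ppara without the pair of libraries led by CT010467.1 (adjusted p = 0.0118 to 0.0179). For EMM against 2i/LIF at P20, other settings ended the calls of Echs1 with the stricter count filter (adjusted p = 0.0101), Etfdh with only the groups compared (adjusted p = 0.0256) and Echs1 and Etfb without the pair of libraries led by CT010467.1 (adjusted p = 0.0109 to 0.0208). For 2i/LIF against Serum/LIF at P10, other settings ended the calls of Ppara with DESeq2 size factors (adjusted p = 0.0101), Ppara with library totals (adjusted p = 0.0106), Eci2 and Ppara without a low-count filter (adjusted p = 0.0133 to 0.047), Ppara with DESeq2 (adjusted p = 0.0303), Acsl1 with only the groups compared (adjusted p = 0.0119) and Ppara without the pair of libraries led by CT010467.1 (adjusted p = 0.0139). For 2i/LIF against Serum/LIF at P20, other settings ended the calls of Acaa1a with library totals (adjusted p = 0.0179), Acaa1a with the stricter count filter (adjusted p = 0.0145), Acaa1a with only the groups compared (adjusted p = 0.0122) and Acaa1a without the pair of libraries led by CT010467.1 (adjusted p = 0.0173).

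**Figure D5:**
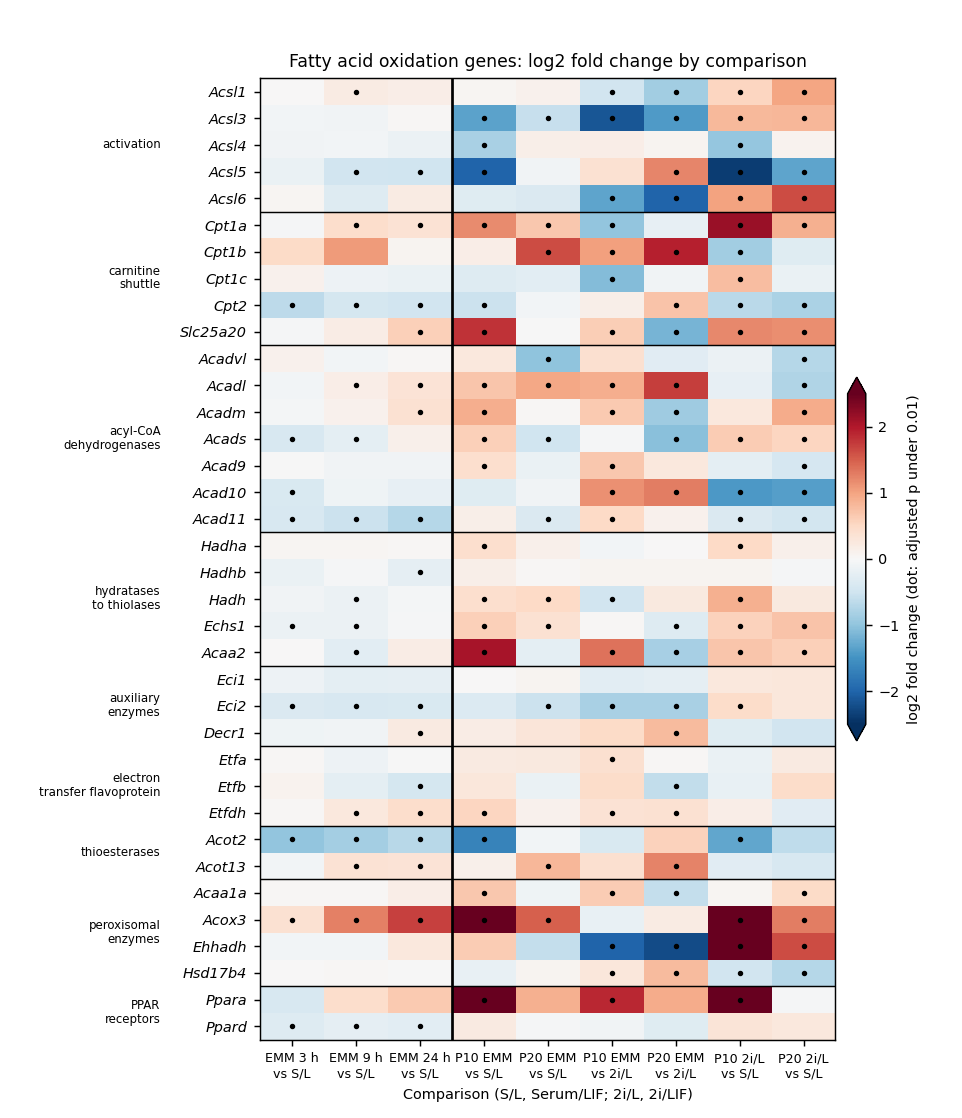
Log2 fold change (colour, from blue for lower to red for higher, saturated beyond 2.5 in size) of the 36 genes (rows, grouped by role) in 9 comparisons (columns), with a dot where the edgeR adjusted p was under 0.01. Acox3 is red in every comparison with Serum/LIF, synthetases are mixed, and 4 dehydrogenases have a dot on red in P10 EMM against Serum/LIF where Acadl alone does at P20. Ppara at P10 rests on very few counts.

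Genes next to the pathway were counted from lists in the same fits, with the 24 h, P10 and P20 comparisons of EMM with Serum/LIF given here. Of 8 tested genes of fatty acid uptake and binding, 2 rose and 4 fell at 24 h, 2 rose and 2 fell at P10, and 3 rose and 2 fell at P20. Of all genes tested, 21.8% and 22.2% rose and fell at 24 h, 18.7% and 18.7% at P10 and 13.6% and 12.5% at P20. Fabp3, a cytosolic fatty acid binding protein, rose in all, from 775, 849.9 and 778 to 3761, 3781 and 3668 counts at 24 h (2.22 ± 0.042, adjusted p = 4.98e-14), by 2.52 at P10 and by 1.83 at P20, while its relative Fabp5 fell (−1.22, −2.46 and −0.76). Of 3 genes that set malonyl-CoA, the inhibitor of CPT1, none rose and 2, 2 and 0 fell. Acacb, the mitochondrial acetyl-CoA carboxylase, fell most at 24 h (−0.88, adjusted p = 4.72e-08) and Mlycd, which removes malonyl-CoA, at P10 (−0.97, adjusted p = 0.000215).

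Of 11 tested genes of peroxisomal oxidation outside the members, 4 rose and 3 fell at 24 h, 6 rose and 1 fell at P10, and 2 rose and 4 fell at P20, where the shares of all genes that rose and fell were 21.8% and 22.2%, 18.7% and 18.7% and 13.6% and 12.5% in that order. Pecr, a peroxisomal enoyl reductase, fell in all (−0.99, −1.01 and −0.96). At 24 h Acaa1b fell slightly more (−1.03, adjusted p = 0.00774), from few counts. Of 4 acyl-CoA dehydrogenases outside the members (Acadsb, Acad8, Ivd and Gcdh), 2, 3 and 1 rose and none fell. Ivd was at 0.29, 1.06 and 0.48, and Acadsb at 0.36 at 24 h. Of the other acyl-CoA thioesterases and synthetases (11 tested in the time course and 12 in the long-term experiment), 3 rose and 2 fell at 24 h, 2 rose and 2 fell at P10, and 1 rose and none fell at P20. Acss1, the mitochondrial acetyl-CoA synthetase, was the largest rise in each (1.21, adjusted p = 4.89e-09 at 24 h, 2.61 at P10 and 2.63 at P20), and Acot1 fell most at 24 h (−1.502). At P10 the largest fall was Acsbg1, which had few counts (−3.38, adjusted p = 0.00622).

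Of 6 genes of lipolysis, 2 rose and 1 fell at 24 h, 3 rose and 2 fell at P10, and none rose and 2 fell at P20. The shares of all genes were 21.8% and 22.2% at 24 h, 18.7% and 18.7% at P10 and 13.6% and 12.5% at P20. Mgll, which cleaves monoacylglycerol, led the rises at 24 h (1.27, adjusted p = 6.59e-06), Pnpla3 at P10 (1.69, adjusted p = 0.000623), and the lysosomal lipase Lipa fell in all (−0.65, −1.49 and −0.92), while Mgll was the largest fall at P20 (−1.31, adjusted p = 0.00598). Of 4 tested genes of carnitine transport and acylcarnitine, 1 rose at 24 h (Crat, 0.36, adjusted p = 0.00115), 2 fell at P10 and 1 at P20. The falls were Slc22a21 (−2.45, adjusted p = 0.000776, at most a few counts in EMM) and Crot (−0.39) at P10, and Crot at P20 (−0.38). Of 8 tested PPAR partners and targets outside the members, 1 rose and 3 fell at 24 h, and 1 rose and 2 fell at each of P10 and P20. Ppargc1b, a coactivator of PPAR and ERR receptors, was the rise in each, with 203, 189.5 and 164 counts in Serum/LIF and 311, 287 and 306 at 24 h (0.70, adjusted p = 4.88e-06), and 1.47 at P10 and 1.14 at P20. Rxrg, a partner receptor with few counts, fell most at 24 h (−1.74, adjusted p = 2.22e-05) and at P10 (−2.07, adjusted p = 0.00104), and Rxra at P20 (−0.58, adjusted p = 0.000983).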

How the data were processed

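RNA-seq of E14tg2a ESCs was measured in 12 libraries of an EMM time course and 18 libraries of long-term culture. Per the labels, RNA was extracted with RNeasy kits, and libraries were made with NEB Next Ultra 2 (time course) or NEBNext Ultra II Directional (long-term culture). The submitters' processing notes name STAR, featureCounts, Salmon and DESeq2 and the build mm10. For the time course the authors deposited raw counts per Ensembl gene. For the long-term culture the authors deposited expected counts, of which 9.98% of values were not whole, and these were rounded. The study's methods describe biological replicates from independent experiments. The labels give the Serum/LIF control of the time course as 0 h, while the treatment protocol mentions 24 h in Serum/LIF.

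Genes past filterByExpr were tested with edgeR 4.0.16 (R 4.3.3, limma 3.58.1), with TMM scaling and the quasi-likelihood F test, in one fit per experiment with no covariates. P values were adjusted by Benjamini-Hochberg over all genes tested, and a gene was called at an adjusted p under 0.01. Normalised counts are counts scaled to the experiment's mean effective library size, and RPKM used exon lengths of the reference. A gene was at the floor when no library of the group passed 3 counts. The members and all gene and motif lists were chosen with earlier results of these data known. All members are accounted for. Cpt1a is given in every comparison, with the 3 largest called rises and falls whose libraries do not overlap, and for P20 minus P10 the 3 largest differences each way. Other lists are given by counts and their largest called rise and fall, except 1 gene that is not reported here. Alternatives were an adjusted p under 0.05, the study's added log2 fold change above 1, DESeq2 size factors, library totals, no filter, at least 10 counts in every library, a replicate block, the DESeq2 1.42.0 Wald test, only the groups compared, and each library left out. Leaving out the pair of libraries led by CT010467.1, and a block by the numbers in the time course's column names, were added after seeing the data. The fits were tested on simulated data. Raw counts were lowest for Ppara in long-term culture and for Ppara and Cpt1b in the time course. Intervals cover counting error only. Promoters are from RefSeq on GRCm38.p6, the same assembly as mm10. No protein sequences were used here.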

Additional observations from a re-analysis of the deposited data

Results flagged for a closer look

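The effect of EMM against Serum/LIF differed between P10 and P20 for 15 of the 36 genes, by the edgeR test of the difference itself at an adjusted p under 0.01. Of all genes tested, 8.28% were above 0 and 6.43% below 0. The values are log2 differences, P20 minus P10, and no explanation was tested. Below 0 were Ppara (−3.99, on at most 18 raw counts in a library), Acaa2 (−2.29), Slc25a20 (−1.81), Acadvl (−1.26), Acads (−1.10), Acox3 (−0.99), Acadm (−0.88), Acaa1a (−0.78), Acad9 (−0.58) and Acad11 (−0.49). Above 0 were Acsl5 (1.91), Acot2 (1.62), Cpt1b (1.46), Acsl4 (0.97) and Acsl3 (0.75). The calls of Ppara, Acox3, Acaa1a, Acad9 and Acad11 ended when some single libraries were left out, as given above. Groups of 3 libraries are too small for a test of outlying samples.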

How the results depend on the processing

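With the study's added threshold of a log2 fold change above 1, the members called numbered 0 at 3 h, 1 at 9 h, 1 at 24 h, 1 for 24 h against 3 h, 8 and 3 for EMM against Serum/LIF at P10 and P20, 8 and 10 for EMM against 2i/LIF, 9 and 6 for 2i/LIF against Serum/LIF, and 8 for P20 minus P10. At an adjusted p under 0.05, 22 members were called for 24 h against 3 h. With each library left out in turn, the counts ran from 7 to 9 at 3 h, 11 to 19 at 9 h, 14 to 18 at 24 h, 11 to 13 for 24 h against 3 h, 16 to 20 (P10) and 10 to 12 (P20) for EMM against Serum/LIF, 17 to 21 and 19 to 21 for EMM against 2i/LIF, 20 to 23 and 18 to 22 for 2i/LIF against Serum/LIF, and 11 to 14 for P20 minus P10. Under the other alternatives every count of members called was within 1.5 times its first value. The Cpt1a difference at 3 h, which passed no test, changed sign without a filter (0.0024) and without replicate 3 of Serum/LIF, and with each library left out it ran from −0.0538 to 0.0152.

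The replicate numbers of the titles did not pair the samples, since 5 of 18 same-numbered pairs in the time course and 3 of 45 in long-term culture had a correlation of deviations over 0.1. With the replicate number as a block, the counts were 9, 17, 18 and 13 in the time course (3, 9 and 24 h, and 24 h against 3 h), 19 and 12 for EMM against Serum/LIF, 20 and 21 for EMM against 2i/LIF, 23 and 20 for 2i/LIF against Serum/LIF, and 13 for P20 minus P10. Of 189 fold changes of named members in a comparison, the block ended the call of 6 (Echs1 for 24 h against 3 h, Etfdh and Ppara for EMM against 2i/LIF at P10, Ppara for 2i/LIF against Serum/LIF at P10, and Acad11 and Ppara for P20 minus P10, adjusted p from 0.0116 to 0.0133) and kept 183 on the same side of the threshold. DESeq2 ended 4 of 188 (it gave Ppara for P20 minus P10 no adjusted p), DESeq2 size factors 3, library totals 13, no filter 14, at least 10 counts in every library 4 of 182 and the fit of only the groups compared 14 of 187. Without the pair of libraries led by CT010467.1, 11 of 133 ended, and 2 of Cpt1a came to pass. These members are named beside their results. The column names of the time course number the EMM libraries from 2 to 4 and Serum/LIF from 1 to 3, and by these numbers 5 of 15 pairs were over 0.1, so they did not pair the samples either. As a replicate block, chosen after seeing the data, they gave 7, 11, 15 and 13 members called and ended the call in 11 of 56 fold changes of named members, those of Acad10 and Echs1 at 3 h, Acsl1, Acadl, Echs1, Acaa2 and Ppard at 9 h, Hadhb, Decr1 and Etfb at 24 h, and Echs1 for 24 h against 3 h, with adjusted p from 0.0107 to 0.0309.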
